A study of Mus musculus with 3 samples.

Results

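The prion protein gene Prnp, its neighbour Prnd and the huntingtin gene Htt are the mouse loci most directly related to the transgene of the N171-82Q mouse, a Huntington's disease model. The construct of this line uses Prnp sequence to drive a fragment of human HTT. H3K4me3 peaks were taken at these loci from the peak lists of 2 hippocampal libraries, 1 per genotype. Members were all peaks that overlapped chromosome 2 from 131720000 to 131790000 (the window of Prnp and Prnd) or chromosome 5 from 35095000 to 35265000 (the window of Htt), in mm9 coordinates counted from 1. The rule found 8 peaks of 38146 in all: 3 of the 18515 peaks of the wild-type (WT) library and 5 of the 19631 peaks of the transgenic (HD) library. The windows had been selected on these same lists, from peak edges, covered lengths and missing counterparts, so the values below describe the loci and test nothing.

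Both groups were adult male C57/DBA F1 hybrid mice: transgenic N171-82Q animals and their wild-type littermates. Hippocampal chromatin pooled from 3 mice was precipitated with an antibody against H3K4me3 and read as single ends of 50 bp. No age beyond adult was given in the labels. With 1 library per genotype, no value had a spread between replicates, and the libraries differ in animals and preparation as well as in genotype, which cannot be told apart. The labels give the WT reads, but not the HD reads, as shared with an earlier deposit. The depth of either library is unknown, since the lists hold no counts of reads.

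H3K4me3 is the trimethylated form of lysine 4 of histone H3. It is laid down around the start sites of active and poised genes, mostly at promoters rich in CpG dinucleotides, and its extent along a gene is read from the width of the peak. Prnp encodes the cellular prion protein, a glycoprotein anchored to the cell surface that is abundant in neurons, and its regulatory sequence is widely used to express transgenes in the brain. Prnd encodes doppel, a prion protein relative known mainly from the testis. Htt encodes huntingtin, a large scaffold protein whose expanded polyglutamine stretch causes Huntington's disease.

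The native promoters are shown because H3K4me3 lies mostly over CpG-rich starts, and the genes differ in this. The sequences are the 250 bases before the annotated start of each gene, from RefSeq (GRCm38.p6), written 5′ to 3′ on the gene's strand, with CG dinucleotides in capitals. Their coordinates belong to that build and cannot be set against the mm9 positions of the peaks. Prnp lies on the plus strand, at chr2:131909678-131909927, Prnd on the plus strand at chr2:131950611-131950860, and Htt on the plus strand at chr5:34761490-34761739.
Prnp: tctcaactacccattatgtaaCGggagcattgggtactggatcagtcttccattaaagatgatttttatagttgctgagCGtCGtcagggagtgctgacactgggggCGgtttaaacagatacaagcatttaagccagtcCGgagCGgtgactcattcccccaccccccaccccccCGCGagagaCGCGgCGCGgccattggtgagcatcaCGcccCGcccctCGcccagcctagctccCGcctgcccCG
Prnd: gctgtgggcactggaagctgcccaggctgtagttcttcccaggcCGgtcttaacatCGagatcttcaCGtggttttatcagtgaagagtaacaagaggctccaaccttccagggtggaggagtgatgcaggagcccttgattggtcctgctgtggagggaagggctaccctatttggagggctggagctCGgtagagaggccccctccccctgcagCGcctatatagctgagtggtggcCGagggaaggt
Htt: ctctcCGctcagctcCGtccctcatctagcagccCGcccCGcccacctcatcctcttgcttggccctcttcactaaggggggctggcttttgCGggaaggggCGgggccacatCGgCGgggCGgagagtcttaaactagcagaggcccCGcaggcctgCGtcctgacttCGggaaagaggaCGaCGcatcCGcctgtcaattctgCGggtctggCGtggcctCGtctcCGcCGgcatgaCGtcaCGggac

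The promoters of Prnp and Htt were rich in CG dinucleotides and that of Prnd was not. Prnp held 17 in its 250 bases, more than 76.5% of 32817 promoters in the same table, and Htt held 22, more than 85.2% of them. Prnd held 6 before the start shown and 8 before its other annotated start, and the median promoter held 6. Both strands were searched for 4 short motifs. GGGCGG, a GC box, which itself contains a CG, occurred 2 times in Prnp, 4 times in Htt and at neither start of Prnd, and 32.7% of promoters held it. CCAAT occurred 2 times in Prnp, 1 time before the Prnd start shown and not in Htt, and 33.8% of promoters held it. TATAAA occurred 1 time in Prnp and in neither of the others (12.4% of promoters), and TATATA 1 time before each Prnd start and in neither of the others (5.25% of promoters). The stretches before the Prnd starts overlap, so they share the same TATATA site and some of their CG dinucleotides. A match describes the letters only.

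In the gene table Prnp is followed on the same strand by Prnd, and Prn, a readthrough gene that joins the pair, shares the Prnp start. The nearest other protein-coding genes in that table are Erv3 before the group and Rassf2 after it. Htt lies between Grk4 and Msantd1. No annotation of mm9 was used here, so the windows carry the gene names, and whether a peak lies over a start site, exon, intron or gene end was not analysed here. For the same reason hippocampal marker genes and the fixed list of related genes (Sprn, Hap1 and Hip1) were not analysed here.

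H3K4me3 peaks covered far more of the Prnp-Prnd window in the transgenic library than in the wild-type library, and slightly less of the Htt window. Reads from the Prnp sequence of the construct cannot be told apart from native ones in a peak list. Their part in the HD peaks was not tested. In the Prnp-Prnd window the peaks covered 6273 bp in WT, 8.96% of its 70 kb, and 16726 bp in HD, 23.9%, a log2 ratio of HD over WT of 1.41. In the 170 kb of the Htt window they covered 2994 bp in WT and 2725 bp in HD, a log2 ratio of -0.14. Over all peaks of the genome the ratio was -0.06. The gain at Prnp-Prnd thus ran against a slightly shorter total covered length in the HD library.

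**Figure D1:**
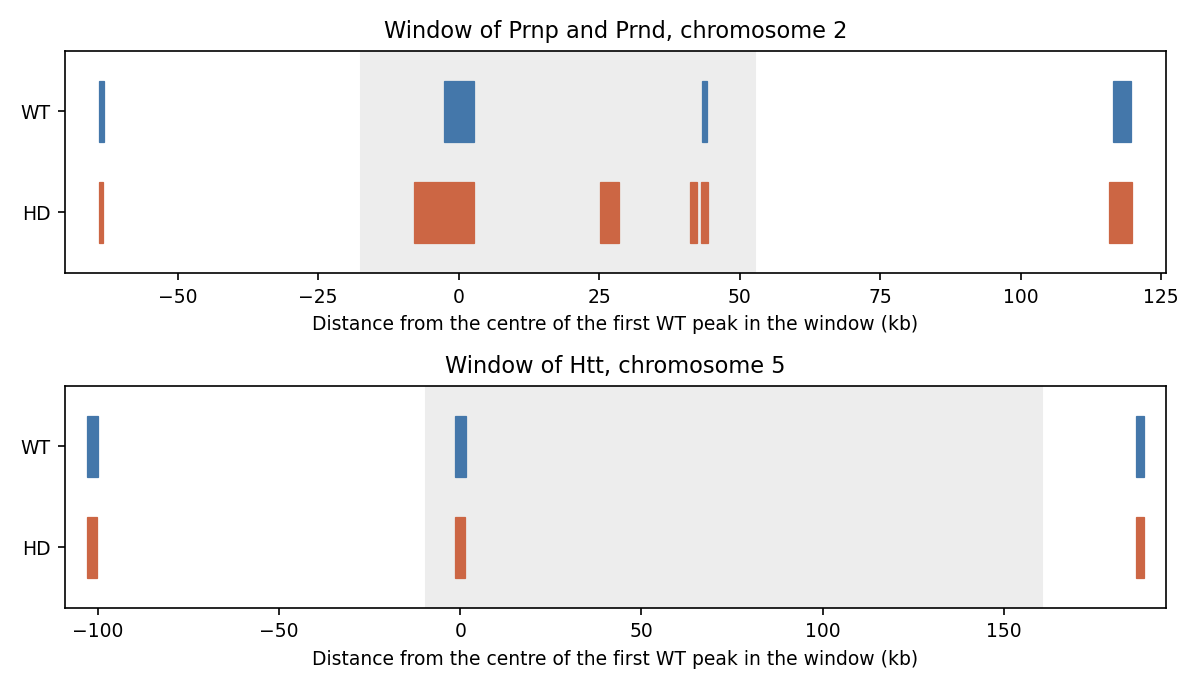
H3K4me3 peaks of the WT (blue) and HD (orange) libraries, drawn to scale against the distance in kb from the centre of the first WT peak of each window; grey marks the window, and the nearest peak of each library on each side lies outside it. The Prnp-Prnd window holds 2 WT and 4 HD peaks, and the Htt window holds 1 of each.

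From left to right, which is the direction in which Prnp and Prnd are read, the peaks of both libraries formed 4 marked regions in the Prnp-Prnd window. Region 1, at 131729324 to 131740062, and region 4, at 131780428 to 131781765, had a peak in each library. Region 2, at 131762440 to 131765960, and region 3, at 131778572 to 131779699, had an HD peak only. Of the 10453 bp by which HD exceeded WT in the window, region 1 gave 5427 bp (51.9%), region 2 3521 bp (33.7%), region 3 1128 bp (10.8%) and region 4 377 bp (3.61%). All 4 regions were longer in HD. The gain was therefore not a single block: HD peaks 1 and 2 were 22.4 kb apart, peaks 2 and 3 12.6 kb and peaks 3 and 4 728 bp. In the WT list a gap of 40.6 kb separated its 2 peaks.

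**Figure D2:**
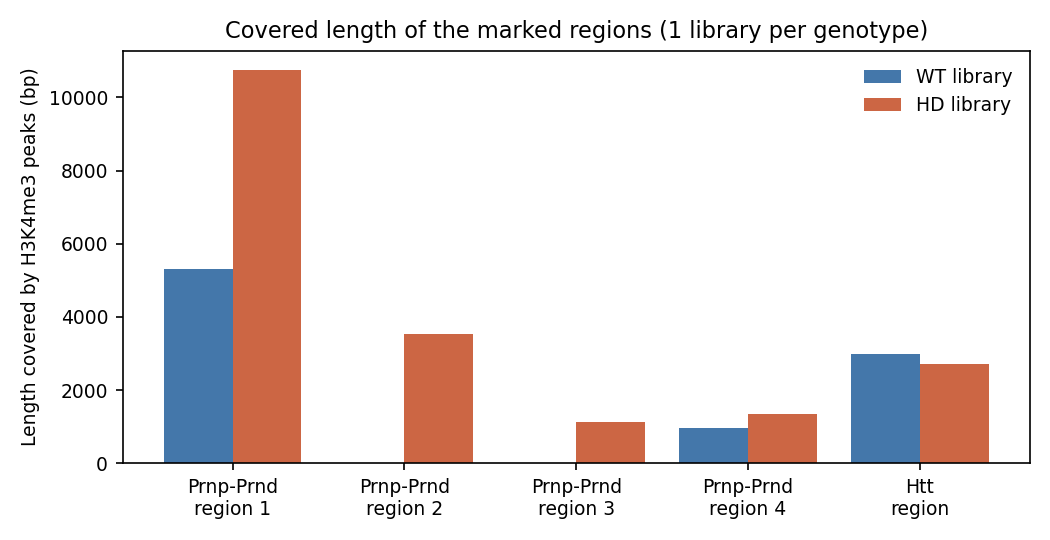
Length in bp covered by peaks of the WT (blue) and HD (orange) libraries in each marked region; bars show 1 library each, so there are no error bars. The HD bar is the longer in all 4 Prnp-Prnd regions, regions 2 and 3 have no WT bar, and the HD bar is the shorter at Htt.

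Region 1 was the strong H3K4me3 domain of the window in both libraries. The WT peak ran from 131734681 to 131739992, 5312 bp, with an authors' score of 2067.4, and the score exceeded that of 86.8% of WT peaks. The HD peak ran from 131729324 to 131740062, 10739 bp, and its score was 3100, a value that 2184 HD peaks share. The score is that of the peak caller on the scale of its own list, so it ranks peaks within a list only. The 2 peaks ended within 70 bp of each other on the right and began 5357 bp apart on the left. The stretch marked in HD alone was thus slightly longer than the whole WT peak.

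The HD peak of region 1 was among the widest of its list and its WT peak was not. Only 11 of the 19631 HD peaks were wider, whereas 577 of 18515 WT peaks were wider than its WT counterpart. The HD list held 14 peaks of at least 10 kb and the WT list 23. Of the 14 in HD, those facing a single WT peak were found in 8 regions, region 1 included. In the other 7 the WT peak was itself wider than 10 kb, and their log2 ratios ran from -0.09 on chromosome 4, at 82142377 to 82155417, to 0.22 in a chromosome 8 region, at 87287633 to 87299951. In region 1 the log2 ratio was 1.02, which exceeded that of 99.9% of shared regions but was not the highest. Of the 17367 shared regions, 0.749% were over 1.5-fold longer in HD and 2.79% over 1.5-fold shorter. Among the 1263 shared regions whose WT length was from 20% below to 25% above that of region 1 (called regions of like WT length below), the median log2 ratio was -0.10 (quartiles -0.23 and -0.01) and none exceeded region 1.

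The shift in region 1 was at its left edge. As a background, 16873 regions held a single peak of each library. Their HD left edges were a median of 62 bp inside the WT edges (from 196 bp inside to 57 bp outside at the quartiles), and their right edges 64 bp inside (196 bp inside to 49 bp outside). In 0.516% of them an HD edge lay over 1 kb outside the WT edge, and in 40 of those 87 the opposite edge stayed within 100 bp, as it did in region 1. Region 1 had the farthest outward shift of any edge in these 16873 regions. The next was the right edge of a chromosome 4 region, at 104829217 to 104837028, which moved out by 3502 bp, from 4310 bp in WT to 7329 bp in HD. The 4 that followed moved out by 2058 to 2141 bp. They lay at 114232161 to 114237332 of chromosome 6, 125927808 to 125935336 of chromosome 4, 28009308 to 28014573 of chromosome 7 and 102091870 to 102094980 of chromosome 5. The chromosome 5 region had WT and HD scores of 55.35 and 83.1, close to the lower end of each list. Its log2 ratio, 1.53, was above that of region 1.

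**Figure D3:**
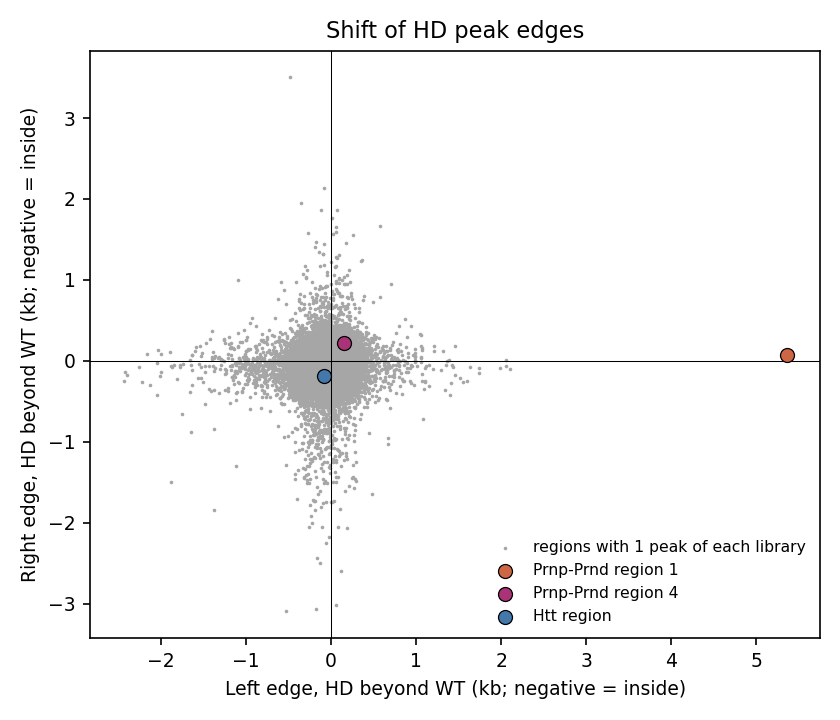
Distance in kb by which the HD peak edge lies outside (positive) or inside (negative) the WT edge, left edge on the x axis and right edge on the y axis, for the 16873 regions with 1 peak of each library (grey). Prnp-Prnd region 1 stands at 5.36 kb on the left and 0.07 kb on the right, beyond every other region on the x axis, while Prnp-Prnd region 4 and the Htt region lie within the main cloud.

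Region 2 was a peak of ordinary strength for the HD list that had no counterpart in WT. It was 3521 bp wide with a score of 698.55, and 40.9% of HD peaks scored lower and 89.0% were narrower. No WT peak lay within 14.6 kb of it. In the window 2 of 4 HD peaks lacked a counterpart, regions 2 and 3, against 9.3% of all HD peaks. In the WT list 5.5% of peaks lacked one, and neither WT peak of the window did. Peaks that only HD had were mostly narrow and weak, with a median width of 1035 bp and a median score of 69.4 over 1825 peaks. Region 2 was the widest of the 1825 and ranked first among them by score.

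The 5 other HD-only peaks nearest to region 2 in score lay at 34641441 to 34644200 of chromosome 12 (score 346.89), at 56256401 to 56257361, 35575455 to 35576720 and 93601196 to 93603652 of chromosome 17, and at 31697282 to 31699891 of chromosome 7. Their widths were 2760, 961, 1266, 2457 and 2610 bp in that order. All 5 were narrower than region 2 and scored lower, which follows from its being the widest and highest scoring HD-only peak. Since the 5 were picked as nearest in score, no HD-only peak could score between theirs and that of region 2.

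**Figure D4:**
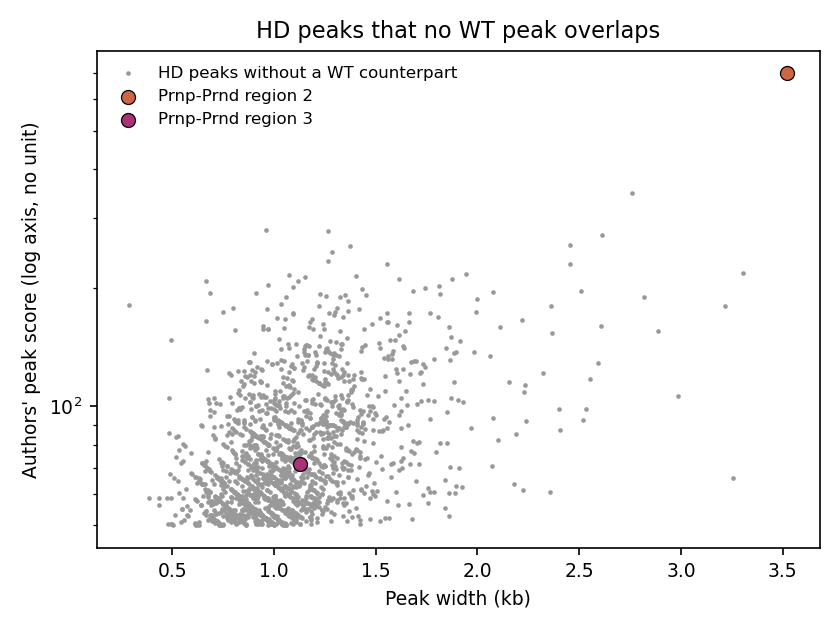
Width in kb (x axis) and authors' score (y axis, log scale) of the 1825 HD peaks that no WT peak overlaps. Prnp-Prnd region 2, at 3.52 kb and 698.55, lies apart in the upper right, and Prnp-Prnd region 3, at 1.13 kb and 71.43, lies among the weak peaks.

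Regions 3 and 4 were weak and lay side by side on the right of the window. Region 3 was an HD peak of 1128 bp with a score of 71.43. Among HD-only peaks 53.3% scored lower and 63.7% were narrower, so that it was a typical one. A similar score, from 20% below to 25% above its own, was found for 1793 HD peaks, and 870 of these lacked a counterpart. The nearest WT peak, that of region 4, began 883 bp away, and 7.07% of HD-only peaks had a WT peak within 1 kb.

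Region 4 was marked in both libraries. The WT peak ran from 131780583 to 131781543, 961 bp, with a score of 103.5, and the HD peak from 131780428 to 131781765, 1338 bp, with a score of 110.78. In WT 15.6% of peaks scored lower, and in HD 16.3%. The HD peak extended farther at both ends, by 155 bp at its left and 222 bp at its right, a log2 ratio of 0.48. Among 1259 shared regions of like WT length, 99 had a higher ratio, and the quartiles were -0.20 and 0.23. The ratio of region 4 thus lay above the upper quartile but within the range of regions of its size, unlike that of region 1.

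The Htt window held 1 strong peak in each library, with no HD-only peak and no outward shift of an edge. The WT peak ran from 35103053 to 35106046, 2994 bp, with a score of 2137.87. The HD peak ran from 35103133 to 35105857, 2725 bp, with a score of 3100. The HD edges lay inside the WT edges by 80 bp at its left and 189 bp at its right, so the peak was slightly shorter at both ends. The log2 ratio of -0.14 compares with a median of -0.11 (quartiles -0.21 and 0.00) over 6058 shared regions of like WT length, of which 3479 had a higher ratio, and with -0.09 over all shared regions. Neither list had another peak in the rest of the window, and no peak of the window lacked a counterpart.

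The WT peaks at Htt and in region 1 had similar scores, 2137.87 and 2067.4. In HD both stood at 3100, a value that 2184 HD peaks share, so the HD scores do not rank the 2 loci. The loci began from peaks of like rank in WT and differed in width: at Htt 74.5% of WT peaks and 74.0% of HD peaks were narrower, and in region 1 96.9% and 99.9%.

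To set the windows beside the rest of the autosomes, these were divided end to end into tiles of the same size. Over 12307 tiles of 70 kb with a peak in either library, HD minus WT covered length had a median of -169 bp (quartiles -496 and 138.5 bp) and a highest value of 6372 bp, below the 10453 bp of the Prnp-Prnd window. The tile borders divided the Prnp-Prnd locus: the tile with region 1 gained 5094 bp and the next 5088 bp, and both were among the 5 highest. The window had been placed around the locus and the tiles had not, which favours the window. Over 7810 tiles of 170 kb the median was -237 bp (quartiles -714 and 168 bp), close to the -269 bp of the Htt window, and 4079 tiles had a value at least as high.

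**Figure D5:**
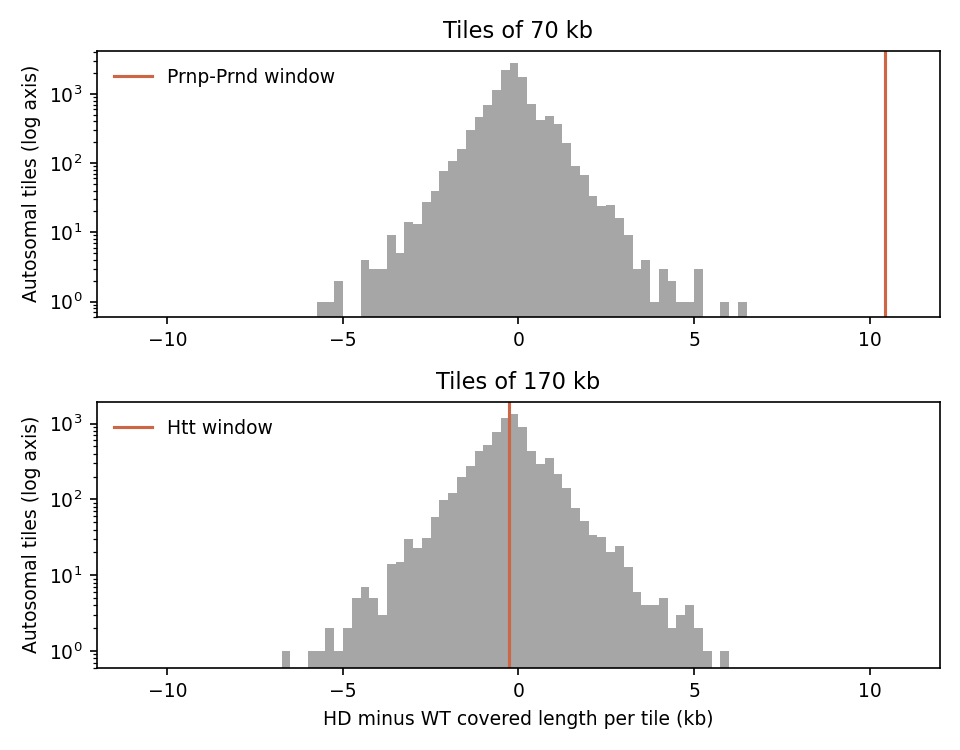
Number of autosomal tiles (y axis, log scale) by HD minus WT covered length in kb, for tiles of 70 kb (upper) and 170 kb (lower) with a peak in either library; the orange line is the window of the same size. The Prnp-Prnd window, at 10.5 kb, lies to the right of every tile, and the Htt window, at -0.27 kb, lies in the middle of its tiles.

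The nearest peaks outside the windows were marked in both libraries. On the left of the Prnp-Prnd window, 45.7 kb away, the WT peak covered 1021 bp and the HD peak 750 bp. On its right, 63.1 kb away, at 131853140 to 131857233, the WT peak covered 3124 bp and the HD peak 4094 bp, extended by 733 bp at its left and 237 bp at its right. That log2 ratio of 0.39 exceeded that of 97.5% of shared regions, and 40 of 5644 regions of like WT length were higher. Around the Htt window the nearest peaks covered 2969 bp in WT and 2865 bp in HD on the left, and 2373 and 2177 bp on the right.

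Within 500 kb on each side of the Prnp-Prnd window lay 12 shared regions, 10 shorter and 2 longer in HD, with log2 ratios from -0.78 to 0.39 and a median of -0.16. Of all 17367 shared regions, 69% were shorter in HD, and the median log2 ratio was -0.09. The Prnp-Prnd flanks held 1 HD-only peak, of score 53.41, and no WT-only peak. Within 500 kb of the Htt window lay 14 shared regions, 7 shorter and 7 longer in HD, with log2 ratios from -0.51 to 0.11 and a median of 0.00, besides 1 WT-only and 2 HD-only peaks. The flank width was chosen after the data had been seen.

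In the HD mice the Prnp sequence of the construct and the native Prnp gene are both present, and reads from matching sequence in either cannot be told apart in a peak list. The part of such reads in the values of regions 1 to 4 was not tested. The only input DNA library of the series was labelled wild type, and its data were not used here. There was no input from HD mice, so the number of copies of Prnp sequence in HD was not controlled for.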

How the data were processed

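Each library had 1 peak list deposited by the authors, giving positions and a score, in which the peak names contain the word MACS. Tools listed in the submitters' processing notes are BWA 0.5.9, CASAVA 1.8.2 and SAMtools, with NCBIM37 and mm9 as builds. For the peak caller, its version, settings and use of the input as control were not given in the labels or lists used here. The deposited score has no named unit and was used only within its list. No p-value was computed, since every list came from 1 library made from 1 pool of mice.

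An overlap of 1 bp or more with the other library's peaks made a counterpart. Peaks that overlapped were joined into regions, and covered lengths were compared as log2 of HD over WT. Like scores or lengths lie between 20% below and 25% above the value. Python 3.11.15, numpy 2.4.6, pandas 2.3.3 and matplotlib 3.10.9 were used, and the interval code was checked on simulated lists. Named were all peaks of the windows, the nearest peaks outside them, the 5 farthest outward edge shifts elsewhere and the 5 HD-only peaks closest in score to region 2. The 10 kb and 500 kb limits and the right-hand neighbour's rank were added after their values were seen. The members and lists were chosen with earlier results of these data known.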

Additional observations from a re-analysis of the deposited data

How the results depend on the processing

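The count of 2 HD peaks without a counterpart at Prnp-Prnd became 1 when any WT peak within 1 kb counted, 1 when both lists were held to a score of at least 100, and 1 with peaks within 1 kb merged. In each case the peak left was that of region 2. A reciprocal overlap of 50% gave 3 HD peaks and 1 WT peak without a counterpart, since region 1 then no longer matched, its HD peak being 2.02 times as long as its WT peak. The log2 ratio of covered length in the Prnp-Prnd window, 1.41 as deposited, was 1.31 with the minimum score, 1.48 with peaks merged and 1.26 with the window widened by 50 kb on each side, and that of the Htt window was -0.13 when widened. Merging joined regions 3 and 4 and moved the log2 ratio of region 4 from 0.48 to 1.73 and its left edge from 155 to 2011 bp outward. The ratios of region 1 and of the Htt region and their edges were the same under the minimum score, equal numbers of top scoring peaks and merging. These settings could not change them. Their peaks score far above the cuts, and no other peak of the same list lies within 1 kb of them. No paired analysis was possible because there was 1 library for each genotype. The unknown depth limits what the absence of a weak WT peak, as in region 3, can show.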
